A study of Serinus canaria and Ploceus bicolor and Uraeginthus cyanocephalus with 155 samples.

Results

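HVC of non-singing female canaries (Serinus canaria) was compared between breeding and non-breeding birds. The comparison used 12 of the 155 arrays of the series, chosen by their sample descriptions: 6 arrays of breeding females and 6 of non-breeding females, each from the HVC of 1 adult bird. The breeding females lived under long days, had received no treatment and did not sing. The non-breeding females lived under short days and, like the breeding females, had received no treatment and did not sing. The methods limit what separates these groups. The breeding canaries were kept in pairs while their breeding was followed, and the non-breeding canaries were moved from pairs to single sound-attenuated boxes for song recording before death, so that breeding state, day length and housing cannot be told apart. The study lists 5 non-breeding females for HVC, while the sample descriptions give 6, and all 6 were used. The whole series also holds blue-capped cordon-bleus and forest weavers, with arrays of HVC and entopallium, and canary arrays of entopallium and cerebellum. The cordon-bleus and forest weavers were breeding birds of both sexes that sang. Against the seasonal comparison in HVC, 3 others were set: the entopallium of 6 breeding and 5 non-breeding females, the cerebellum of 6 breeding and 6 non-breeding females, and the HVC of 6 breeding males, which sang, and 6 non-breeding males, which did not. These birds were adult and untreated, with breeding birds under long days and non-breeding birds under short days. For levels, HVC arrays of 2 further groups of adult non-breeding females under short days were used. These were 6 untreated females that sang spontaneously and 6 that sang after testosterone implantation. Both groups also entered an alternative fit of 7 canary HVC groups and a check for outlying arrays. So did 6 adult non-breeding males under short days that sang after testosterone implantation.

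HVC is a nucleus of the nidopallium that sends premotor commands for song to the motor pathway and also feeds the basal ganglia loop used in song learning. Its neurons carry androgen receptors and, in canaries, estrogen receptors, and in songbirds of the temperate zone its size and cell number change with day length and gonadal hormones. Female canaries seldom sing, and their HVC is smaller than that of males. The entopallium is a visual area of the nidopallium outside the song system, and the cerebellum lies outside the telencephalon, and both were used here to set beside HVC.

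RNA was taken from tissue dissected from cryosections, and labelled cDNA made from it was hybridised to custom exon arrays designed for zebra finch, and the values are log2 transcript levels of 26061 transcripts. One unit is a doubling. Because transcripts of other species were read by zebra finch probes, a difference is taken only for the same transcript between arrays of the same species. Mean levels also served to order transcripts and to leave out low ones, which the match of the probes can affect. In dissected tissue, fewer cells of a type and less RNA per cell cannot be told apart. The identifiers matched 0 of 17915 genes of the reference table, so transcripts are given by identifier without gene names or functions. Levels ran between 1.33 and 14.4 over the 12 arrays.

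The 12 arrays separated by season over the whole transcriptome. The first principal component held 33.7% of the variance and separated the groups completely: its scores lay between -18.36 and -15.66 in breeding females and between 15.38 and 18.08 in non-breeding females. The second component held 14.1% and varied mostly among non-breeding females, whose scores ran between -16.74 and 17.42, while 5 breeding females lay between 0.90 and 5.21 and breeding replicate 2 lay at -16.99. Pearson's r between arrays was between 0.990 and 0.993 among breeding females, between 0.989 and 0.994 among non-breeding females, and between 0.982 and 0.988 for pairs of a breeding and a non-breeding bird, and 0 of 66 pairs held identical values.

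**Figure D1:**
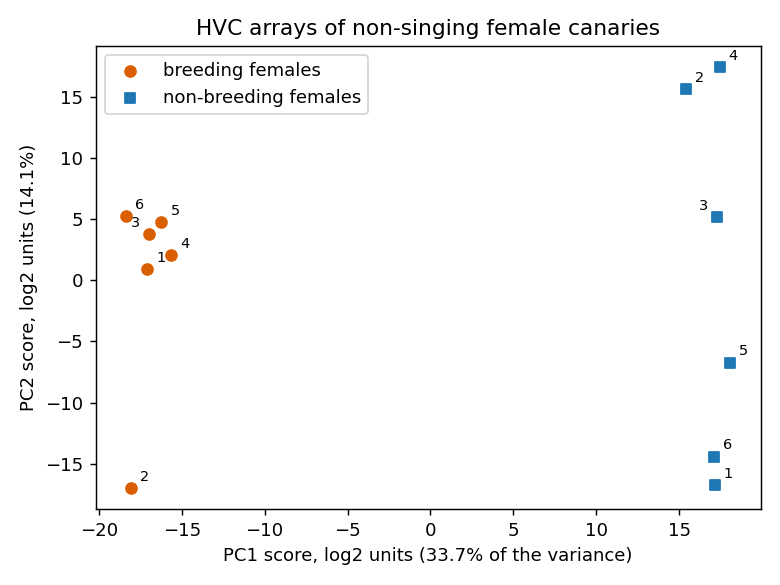
Scores of the 12 HVC arrays on the first and second principal components of all 26061 transcripts, in log2 units, with breeding females as circles and non-breeding females as squares, numbered by replicate. Breeding females lie at or below -15.66 and non-breeding females at or above 15.38 on the first component, and breeding replicate 2 sits apart from the other breeding females on the second.

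The whole scale of the arrays also differed slightly. The median level averaged 7.32 ± 0.0183 in breeding females and 7.35 ± 0.0210 in non-breeding females (SD, n = 6 each), a difference of -0.03 (exact two-sided permutation test, p = 0.0325, 0.0368 after Benjamini-Hochberg adjustment over 3 array measures). The 1st percentile averaged 2.81 ± 0.0146 in breeding females and 2.76 ± 0.0585 in non-breeding females (difference 0.05, exact permutation p = 0.0368, adjusted 0.0368). The 99th percentile averaged 11.39 ± 0.0171 in breeding females and 11.34 ± 0.0217 in non-breeding females (difference 0.06, exact permutation p = 0.00433, adjusted 0.0130). These shifts are small beside the threshold of 0.5 used below. With each array centred on its median, 365 transcripts were called higher and 340 lower, against 307 and 400 as deposited. Centring moves all levels of an array alike, so it cannot remove percentile shifts that run opposite to the median. Quantile normalisation, which gives all arrays the same distribution of levels, gave 311 higher and 388 lower.

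By limma, 707 transcripts in HVC differed between breeding and non-breeding females. A transcript counted as called where its Benjamini-Hochberg adjusted p was under 0.05 and the means differed by at least 0.5 log2 units, which is 1.41-fold. This was 2.71% of all transcripts tested. Of these, 307 were higher in breeding females (1.18%) and 400 were lower (1.53%). Without breeding replicate 2, which stood apart on the second component, 709 were called, 327 higher and 382 lower. The differences were mostly small: 93.2% of the called transcripts differed by less than 1 log2 unit. Only 48 (0.184%) reached 1 or more, of which 20 were higher and 28 lower in breeding females. The 307 raised transcripts had a median difference of 0.60, or 1.52-fold, and the 400 lowered ones a median of -0.62, or 1.54-fold lower, with extremes of 1.83 and -1.88. Over all transcripts the median difference was -0.01, with quartiles of -0.12 and 0.10.

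Without a threshold on the size of the difference, 7059 transcripts (27.1%) passed an adjusted p under 0.05, of which 3428 were higher and 3631 lower in breeding females. The median spread within groups was 0.113 log2 units, so that differences well below 0.5 could pass the test. All 6 breeding females lay above or below all 6 non-breeding females in 499 of the 707 called transcripts (70.6% of them, and 1.91% of all transcripts), 210 of them raised and 289 lowered, while the groups did not overlap in 3400 of all 26061 transcripts (13%). Called transcripts varied more between birds of a group than transcripts did in general. Their median SD was 0.186 in breeding females and 0.173 in non-breeding females, against 0.105 and 0.111 over all transcripts in the same groups. The calls were made on these same arrays and required a difference of at least 0.5. That rule favours groups without overlap and transcripts that vary widely, so both comparisons with all transcripts are a description.

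**Figure D2:**
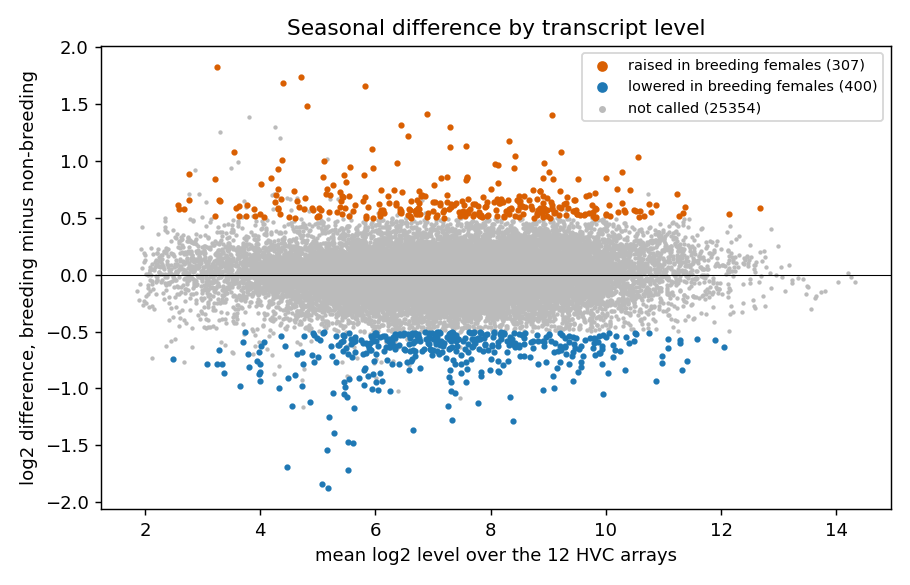
Seasonal difference in HVC, breeding minus non-breeding females, in log2 units, plotted against the mean level over the 12 arrays for all 26061 transcripts, with the 307 raised and 400 lowered transcripts in colour. Called transcripts occur across the whole range of levels, and few differ by more than 1.

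The called transcripts were spread over the range of levels. When transcripts were ordered by mean level and cut into 4 groups of like number, 2.87% of the lowest group, 2.56% of the second, 2.21% of the third and 3.21% of the highest were called. The highest group held 108 raised and 101 lowered transcripts. The second group held 62 raised and 105 lowered ones, the most uneven split of the 4. The median spread within groups was 0.139 in the lowest group and 0.1004 in the highest.

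The calls also came from each source of transcript models on the array. Of the Ensembl zebra finch transcripts, whose identifiers begin with ENSTGUT, 113 of 11936 were raised and 148 lowered (2.19%). Of the RefSeq predicted messenger RNAs, which begin with XM_, 138 of 10482 were raised and 195 lowered (3.18%). The RefSeq predicted non-coding RNAs, which begin with XR_, gave 9 raised and 24 lowered transcripts among 895 (3.69%), and the chicken Ensembl models gave 10 raised and 8 lowered among 523 (3.44%). Different identifiers can stand for the same gene. Over the 143 arrays that the comparison did not use, 19 of the 707 called transcripts followed another called transcript with a residual correlation above 0.9. They formed 9 small clusters, each changed in a single direction. Identifiers of the same gene can fall short of that threshold, so this does not give the number of genes called.

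The raised transcript with the largest difference among those above the lowest 25% of levels, and with no overlap between the groups, was XM_002189651. In HVC its log2 level was 10.05, 10.06, 9.19, 10.01, 9.64 and 9.67 in the breeding females, replicates 1 to 6, and 9.00, 8.13, 8.01, 8.42, 8.35 and 8.27 in the non-breeding females. The lowest breeding bird lay just above the highest non-breeding bird, and the other birds were well apart. The means were 9.77 ± 0.34 in breeding females and 8.36 ± 0.35 in non-breeding females (SD, n = 6 each), a difference of 1.41 (SE 0.17, limma adjusted p = 0.000125), or 2.66-fold.

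XM_002189651 had a similar seasonal difference in the entopallium. There its level was 10.50, 9.96, 10.12, 9.43, 10.08 and 10.19 in breeding females and 8.25, 9.01, 9.08, 9.40 and 8.35 in non-breeding females, which just failed to overlap (difference 1.23, SE 0.22, limma adjusted p = 0.00237). The seasonal difference was 0.76 in the cerebellum (SE 0.25, limma adjusted p = 0.141) and -0.09 in the HVC of males (adjusted p = 0.871). The difference in HVC exceeded that in the entopallium by 0.18 (limma interaction, adjusted p = 0.702) and that in the cerebellum by 0.65 (adjusted p = 0.222), neither of which passed the test. The difference in females exceeded that in males by 1.50 (SE 0.23, limma interaction, adjusted p = 0.000181). This transcript and the other named ones were chosen on HVC arrays that enter each interaction, so their interaction tests are not independent.

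The second raised transcript was XM_002200534. Its log2 level in HVC was 7.62, 9.28, 7.72, 7.56, 7.98 and 7.57 in the breeding females and 6.86, 7.001, 6.37, 6.53, 6.35 and 6.78 in the non-breeding females. Breeding replicate 2 stood far above the other breeding birds, all of which were still above every non-breeding bird. The means were 7.95 ± 0.67 in breeding females and 6.65 ± 0.27 in non-breeding females (SD, n = 6 each), a difference of 1.30 (SE 0.26, limma adjusted p = 0.00229), or 2.47-fold. Without breeding replicate 2 the difference was 1.04 and still passed the test.

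In the other tissues and in males XM_002200534 did not pass the test. Its seasonal difference was 0.35 in the entopallium of females (limma adjusted p = 0.121), 0.26 in the cerebellum (adjusted p = 0.727) and 0.48 in the HVC of males (adjusted p = 0.756). Without single arrays the cerebellum value ran between -0.0079, without non-breeding replicate 6, and 0.41, without non-breeding replicate 1, and the male value between 0.21 and 0.74. The difference in HVC exceeded that in the entopallium by 0.96 (SE 0.31, limma interaction, adjusted p = 0.0408). This call was held in 12 of the 23 fits that left out a single array, over which the adjusted p ran between 0.0255 and 0.0698. It was lost without breeding replicate 5 or non-breeding replicates 3 to 6 of HVC, or without breeding replicates 2, 4 or 6 or non-breeding replicates 2 to 4 of the entopallium. The excess over the cerebellum was 1.05 (adjusted p = 0.120) and that of females over males 0.83 (adjusted p = 0.349).

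The lowered transcript with the largest difference by the same rule was XM_002189587. Its log2 level in HVC was 6.02, 5.80, 6.33, 5.97, 6.10 and 5.64 in the breeding females and 7.48, 7.09, 7.28, 7.37, 7.11 and 7.73 in the non-breeding females. The groups were clearly apart, and both spread little. The means were 5.97 ± 0.24 in breeding females and 7.34 ± 0.24 in non-breeding females (SD, n = 6 each), a difference of -1.37 (SE 0.12, limma adjusted p = 2.07e-05), or 2.58-fold lower.

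XM_002189587 fell by nearly the same amount in the entopallium. Its level there was 5.99, 6.38, 6.46, 5.68, 6.47 and 6.03 in breeding females and 8.01, 7.20, 8.01, 7.45 and 7.30 in non-breeding females, with no overlap (difference -1.42, SE 0.18, limma adjusted p = 0.000498). The seasonal difference was -0.63 in the cerebellum (limma adjusted p = 0.318) and -0.43 in the HVC of males (adjusted p = 0.372), neither of which passed the test. HVC minus entopallium was 0.05 (limma interaction, adjusted p = 0.899), HVC minus cerebellum -0.74 (adjusted p = 0.193), and females minus males -0.94 (SE 0.21, adjusted p = 0.00432).

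The second lowered transcript, ENSTGUT00000011554, was lowered in HVC more than in each of the other comparisons. Its log2 level in HVC was 6.32, 6.44, 6.85, 6.85, 6.97 and 6.74 in the breeding females and 7.34, 7.68, 8.27, 7.93, 8.27 and 8.35 in the non-breeding females. Every breeding bird lay below every non-breeding bird. The means were 6.69 ± 0.26 in breeding females and 7.97 ± 0.40 in non-breeding females (SD, n = 6 each), a difference of -1.28 (SE 0.17, limma adjusted p = 0.000207), or 2.43-fold lower.

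In the entopallium ENSTGUT00000011554 had levels of 6.95, 7.09, 6.79, 6.997, 7.42 and 6.94 in breeding females and 7.37, 7.05, 7.18, 7.10 and 8.31 in non-breeding females, which overlapped (difference -0.37, limma adjusted p = 0.184). Without non-breeding replicate 5, the highest, the difference was -0.14. Its seasonal difference was -0.14 in the cerebellum (adjusted p = 0.718) and 0.22 in the HVC of males (adjusted p = 0.729), by limma. Without single arrays these ran between -0.21 and -0.0023, the smallest without non-breeding cerebellum replicate 6, and between 0.09 and 0.34. The 3 limma interactions were all called: HVC minus entopallium was -0.91 (SE 0.26, adjusted p = 0.0222), HVC minus cerebellum -1.14 (SE 0.25, adjusted p = 0.00465) and females minus males -1.50 (SE 0.27, adjusted p = 0.000685). These calls were kept in every fit that left out a single array. The transcript was chosen on HVC arrays that enter all of them, so neither the calls nor these fits are an independent test.

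**Figure D3:**
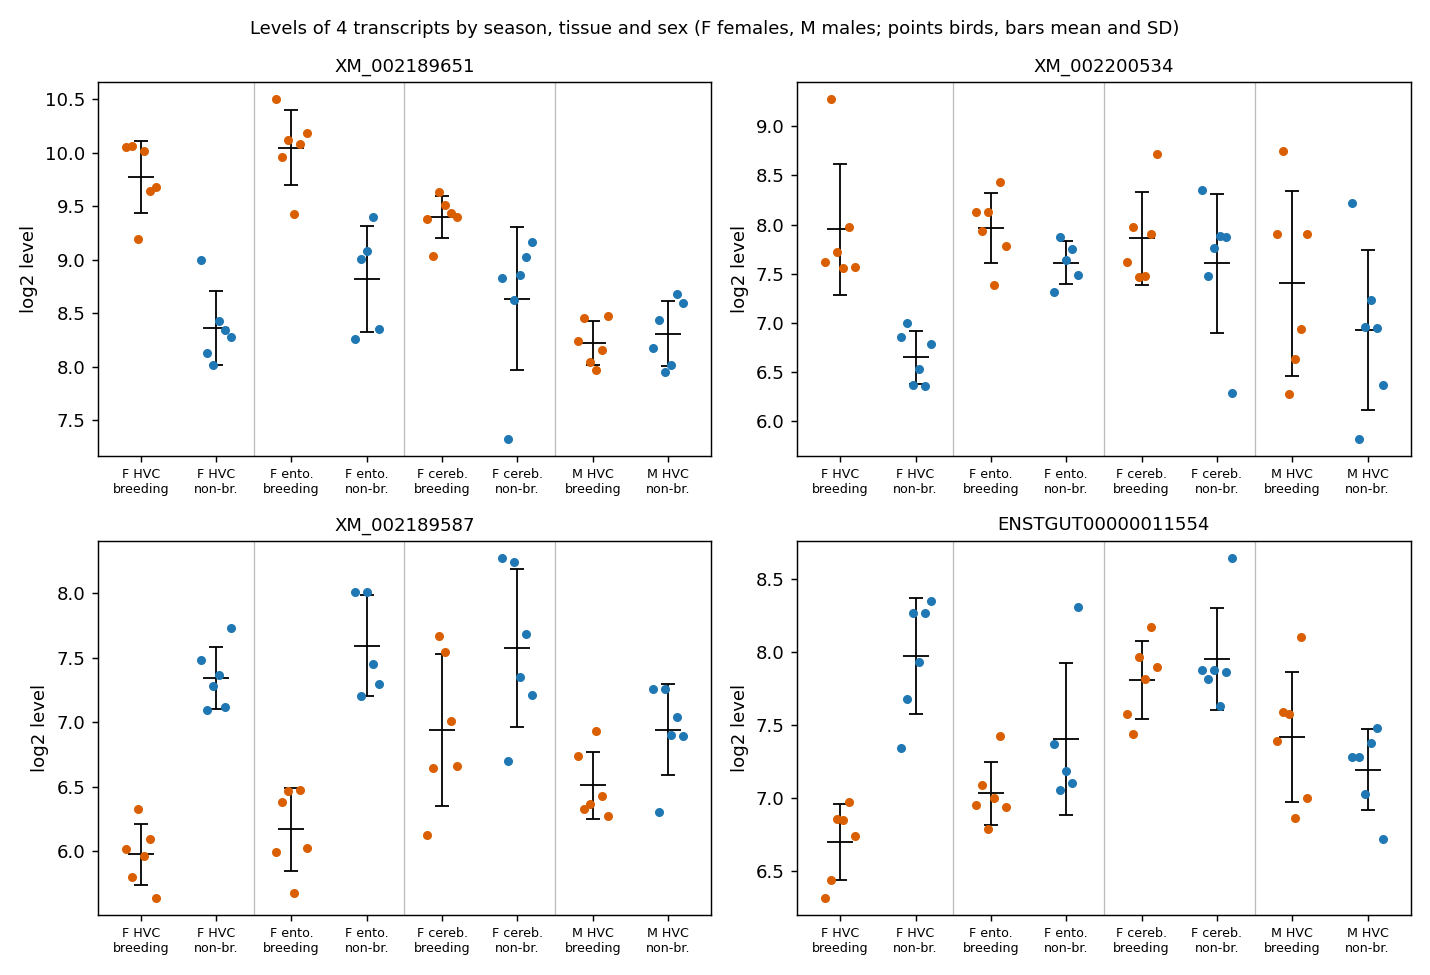
Log2 levels of the 4 named transcripts in each bird, with breeding females left of non-breeding females for HVC, entopallium and cerebellum and breeding males left of non-breeding males for HVC; points are birds and whiskers the mean ± SD. The 12 HVC arrays of females do not overlap for any of the 4, while in the entopallium only XM_002189651 and XM_002189587 are without overlap.

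The transcripts that followed these in size are given by their ranges. Among called transcripts above the lowest 25% of levels and without overlap there were 173 raised and 229 lowered. The raised ones ranked 3 to 12 differed by 0.86 to 1.18, at mean levels between 6.38 and 10.5 and with a largest limma adjusted p of 0.00195. Of these 10, 4 were also called higher in the entopallium (1.38% of all transcripts) and 9 had a more positive difference than males by the interaction (1.4% of all). The lowered ones ranked 3 to 12 differed by 0.94 to 1.15 in size, at mean levels between 6.26 and 10.9 and with a largest limma adjusted p of 0.00105. Of these 10, 6 were also called lower in the entopallium (2.02% of all transcripts) and all 10 had a more negative difference than males by the interaction (1.53% of all). All were picked for large differences in the HVC arrays that enter the interaction.

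The entopallium of the females gave a seasonal difference of like extent. Fitted on its own 11 arrays by limma, it had 886 called transcripts (3.4%), 360 of them raised (1.38%) and 526 lowered (2.02%). With each array scaled to the same total intensity these were 263 and 653. Without single arrays the total ran between 744, without non-breeding replicate 1, and 1140, without non-breeding replicate 5. Of the 307 transcripts raised in HVC, 58 were also raised in the entopallium, which is 18.9% of the HVC list and 16.1% of the entopallium list, and 2 were lowered there. Of the 400 transcripts lowered in HVC, 136 were also lowered in the entopallium, which is 34% of the HVC list and 25.9% of the entopallium list, and 1 was raised. These shares stand beside a background of 1.38% raised and 2.02% lowered in the entopallium over all transcripts. The arrays of both tissues came largely from birds with the same numbers: 11 bird numbers had an array of each. In non-breeding birds the pairing by number was not clearly borne out by the levels.

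Over the whole lists, including transcripts called in the entopallium, the mean difference there mostly had the same sign as in HVC. The raised list had a median seasonal difference of 0.30 in the entopallium (quartiles 0.07 and 0.48), and 255 of 307 had a higher mean in breeding females (83.1%, against 56.1% of all transcripts). The lowered list had a median of -0.38 (quartiles -0.59 and -0.16), and 49 of 400 had a higher mean in breeding females (12.2%). Over all transcripts the median difference in the entopallium was 0.03. Both medians were nearer to 0 than the medians of 0.60 and -0.62 in HVC, the arrays on which the lists had been chosen.

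The difference between the tissues was tested as an interaction with the bird as a random block. Over all transcripts, limma called 770 (2.95%): in 445 the seasonal difference was more positive in HVC than in the entopallium (1.71%), and in 325 it was more negative (1.25%). This split moved with the scaling of the arrays, to 623 and 213 with each array centred on its median, 542 and 262 with equal total intensity, and 551 and 263 after quantile normalisation. Among the 307 raised transcripts, 79 (25.7%) had a more positive difference in HVC and 1 a more negative one. Among the 400 lowered transcripts, 70 (17.5%) had a more negative difference in HVC and 2 a more positive one. Without breeding HVC replicate 2 the interaction called 841 transcripts. Over all fits without a single array its count ran between 619 and 983. The lowest was without non-breeding entopallium replicate 3 and the highest without non-breeding entopallium replicate 5. The interactions use the HVC arrays that chose the lists, so these shares describe the lists and are not an independent test.

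**Figure D4:**
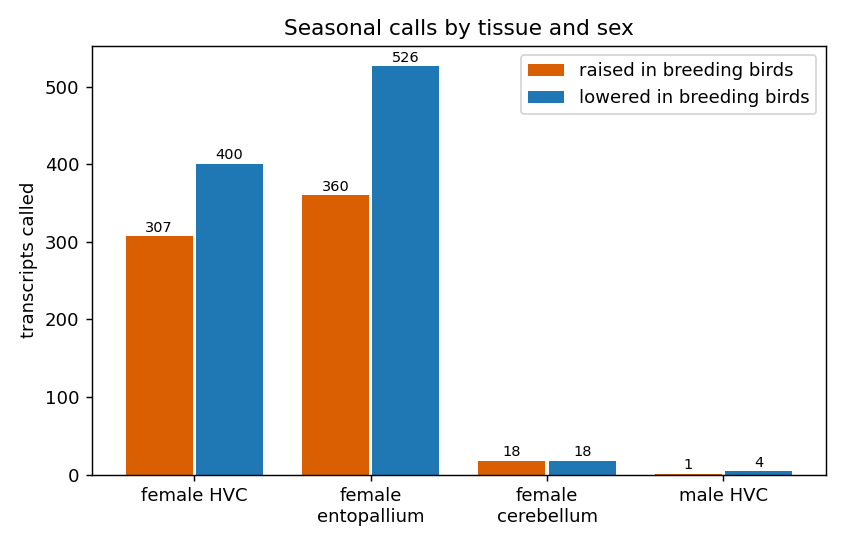
Number of transcripts called in each of the 4 seasonal comparisons, with higher and lower calls shown separately, by limma with the thresholds on adjusted p and size given above. HVC and entopallium of females have 707 and 886 seasonal calls, while cerebellum of females has 36 and HVC of males 5.

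In the cerebellum of females few transcripts passed the test. With the same numbers of arrays, limma called 36 (0.138%), of which 18 were higher (0.0691%) and 18 lower (0.0691%) in breeding females. At an unadjusted p under 0.05 there were 4213 transcripts. Leaving out any of the 12 arrays moved the count of calls by over 1.5 times, to between 0 and 99, the highest without non-breeding cerebellum replicate 6. The median spread within groups was 0.113 in HVC and 0.153 in the cerebellum. Of the raised list, 0 were called in the cerebellum by limma, and at an unadjusted p under 0.05 there were 57 higher and 10 lower, beside 2673 higher and 1540 lower of all 26061. The list's median difference there was 0.07, and 193 of 307 had a higher mean in breeding females (62.9%, against 48.7% of all transcripts). Of the lowered list, 2 were called lower, and at an unadjusted p under 0.05 there were 75 lower and 26 higher. Its median was -0.10.

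The interaction of season with tissue separated HVC from cerebellum in 710 transcripts by limma (2.72%). The seasonal difference was more positive in HVC in 290 (1.11%) and more negative in 420 (1.61%), or 389 and 314 with each array centred on its median. The raised list held 128 of those that were more positive (41.7% of the list), and the lowered list 165 of those that were more negative (41.2%). These shares describe the lists and are not an independent test, because the lists were chosen on HVC arrays that enter the interaction.

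The HVC of males gave few seasonal calls, although breeding males sang and non-breeding males did not. By limma, 5 transcripts were called (0.0192%), of which 1 was higher (0.00384%) and 4 were lower (0.0153%) in breeding males, with 2684 at an unadjusted p under 0.05, and the spread within groups was close to that of the females (median SD 0.120). Leaving out a single array gave between 1 and 5 calls, a move of over 1.5 times for 10 of the 12 arrays. For the same groups of males the study reported far more differing genes, by its probe-level test with the same threshold on size. That test was not run here, so the small count of calls does not show that male HVC changes little. The lists chosen in females had medians near 0 in males. The raised list had a median seasonal difference of 0.03, and 169 of 307 had a higher mean in breeding males (55%, against 46.3% of all transcripts). It held 1 call, the only transcript called higher in males. At an unadjusted p under 0.05 by limma it had 36 higher and 11 lower, beside 1155 higher and 1529 lower of all 26061. The lowered list had a median of -0.02, with 174 of 400 higher on average in breeding males. Limma called 0 of it, and at an unadjusted p under 0.05 there were 51 lower and 31 higher, beside 1529 lower and 1155 higher of all 26061.

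The difference between the sexes was itself tested. Singing changed with season in these males and not in these females, so that sex and the change in singing cannot be told apart. Limma called 763 transcripts for the interaction of season with sex (2.93%), with a seasonal difference more positive in females than in males in 365 (1.4%) and more negative in 398 (1.53%), or 422 and 347 with each array centred on its median. Of the transcripts raised in females, 173 were called more positive (56.4%), and of those lowered, 250 were called more negative (62.5%). Of the transcripts called in the same direction in HVC and entopallium of females, 39 of 58 raised and 100 of 136 lowered ones also differed from the HVC of males by the interaction. In all 3 interactions together, 22 of all transcripts (0.0844%) had a called difference more positive in the HVC of females, of which 21 were in the raised list, and 22 (0.0844%) had one more negative, of which 21 were in the lowered list. The lists were chosen on HVC arrays that enter each interaction, so these counts are a description.

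**Figure D5:**
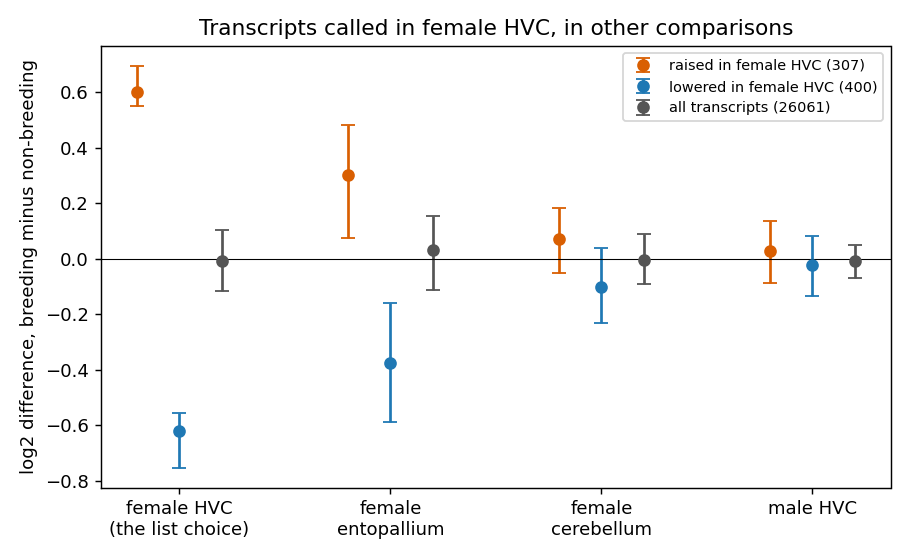
Seasonal difference, breeding minus non-breeding, in log2 units for the 307 transcripts raised and the 400 lowered in HVC of females, shown for HVC, entopallium and cerebellum of females and HVC of males; points are medians and lines reach from the first to the third quartile. The HVC medians of 0.60 and -0.62 are set by the choice of the lists, the entopallium medians are 0.30 and -0.38, and those of cerebellum and male HVC lie between -0.10 and 0.07.

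The mean level of each list in single birds showed where the other canary groups lay. The raised list averaged between 7.67 and 7.73 in the HVC of breeding females and between 7.02 and 7.11 in that of non-breeding females, a separation that the choice of the list fixes. In the HVC of males it lay between 7.25 and 7.32 in breeding and between 7.22 and 7.27 in non-breeding birds, ranges that overlapped and lay between those of the females. The cerebellum of females also lay between them, at 7.16 to 7.31 in breeding and 7.12 to 7.25 in non-breeding birds. Choosing a list for a wide gap favours such middle positions in other groups. The lowered list averaged between 6.86 and 7.001 in HVC of breeding females and between 7.59 and 7.65 in that of non-breeding females. In HVC of males it averaged 7.38 to 7.47 in breeding and 7.41 to 7.52 in non-breeding birds. In the cerebellum of females it averaged 7.17 to 7.23 in breeding and 7.27 to 7.35 in non-breeding birds. The entopallium of breeding females did not take a middle position for the raised list. There it averaged 7.74 to 7.83, above the breeding HVC range, and 7.42 to 7.56 in non-breeding females. The lowered list in the entopallium averaged 6.82 to 6.96 in breeding and 7.22 to 7.29 in non-breeding females.

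Other non-breeding females under short days did sing, either spontaneously or after testosterone implantation. In the 6 spontaneous singers the raised list averaged between 7.51 and 7.73, which reached into the range of the breeding females, and the lowered list between 7.06 and 7.18. In the 6 testosterone-implanted females the raised list averaged between 7.27 and 7.43 and the lowered list between 7.34 and 7.39. In both lists these groups lay between the breeding and the non-breeding non-singing females or reached the breeding ones. The choice of the lists favours a middle position here as well. No difference against the non-singing females is given, because it would share their arrays with the comparison that chose the lists.

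The 4 named transcripts did not all follow the lists in these singing birds. XM_002189587 averaged 6.04 ± 0.52 in spontaneous singers and 6.95 ± 0.45 in testosterone-implanted females (SD, n = 6 each), beside the 5.97 of breeding females and the 7.34 of non-breeding females. ENSTGUT00000011554 averaged 6.54 ± 0.31 in spontaneous singers and 7.65 ± 0.17 in testosterone-implanted females, beside 6.69 in breeding and 7.97 in non-breeding females. XM_002200534 averaged 8.95 ± 0.62 in spontaneous singers and 8.40 ± 0.56 in testosterone-implanted females, both above the 7.95 of breeding females. XM_002189651 averaged 8.88 ± 0.43 in spontaneous singers and 8.78 ± 0.17 in testosterone-implanted females, which lay between the 9.77 of breeding females and the 8.36 of non-breeding females.

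The identity of the dissected tissue was checked with lists from the other species. In forest weavers and in cordon-bleus, 404 transcripts were at least 1 log2 unit higher in HVC than in entopallium and 214 at least 1 unit lower, called by limma in each species separately. In the female canaries the HVC-enriched list averaged between 8.70 and 8.81 in HVC of breeding females and between 8.65 and 8.75 in HVC of non-breeding females, against 7.27 to 7.52 and 7.41 to 7.60 in the entopallium of the same groups. The HVC label held in all 12 arrays.

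The seasonal difference of these lists was small. Of the HVC-enriched list, 21 transcripts were raised and 11 lowered in breeding females (7.92%, against 2.71% of all transcripts), and its median difference was 0.08. With a threshold of 0.5 in place of 1 for the list, which then held 1096 transcripts, the median was 0.04. Of the HVC-depleted list, which the entopallium expresses more strongly, 12 were raised and 3 lowered (7.01%), with a median of 0.09. The HVC-depleted list averaged between 7.24 and 7.33 in breeding females and between 7.12 and 7.22 in non-breeding females, without overlap, while in the entopallium it averaged between 8.69 and 8.81 in breeding and between 8.70 and 8.82 in non-breeding females. The HVC-enriched list overlapped between the groups in HVC. Both shifts were small beside the difference of more than 1 unit between the tissues, and their part in the calls was not tested.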

How the data were processed

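The values were log2 transcript levels of 26061 transcripts as deposited by the authors, 1 column per array. The authors hybridised labelled cDNA to custom zebra finch exon arrays and summarised probes to transcripts, and the submitters' processing notes name Affymetrix Expression Console. The sources used here state neither its settings nor hybridisation or scan batches, so that a batch effect was not tested. There were 0 missing values, and no further normalisation was applied. Groups came from the sample descriptions. The number of arrays and the spread between birds limit the precision.

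The tests were made in R 4.3.3 by limma 3.58.1, using lmFit and eBayes as supplied, and p-values were adjusted by Benjamini-Hochberg across the 26061 transcripts. Calls needed an adjusted p under 0.05 together with a log2 difference of 0.5 or more in size. The study's own probe-level test needs probe intensities, which were not used here. Differences are breeding minus non-breeding, and the interactions are HVC minus entopallium, HVC minus cerebellum and females minus males. The bird was a random block for HVC and entopallium (consensus correlation 0.09). Of the 11 birds with both arrays, 7 correlated best with their own number, with r between -0.0678 and 0.238. In breeding birds r ran between 0.058 and 0.238. In non-breeding birds it was -0.0678, -0.0289, 0.117, -0.0114 and 0.0786, so the pairing by number is not clearly borne out there. Without the bird block, the interaction of HVC and entopallium called 711 transcripts against 770 with it. Of the 711, 414 were more positive and 297 more negative in HVC. For cerebellum the descriptions give no bird number. The code was tested on simulated levels.

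Named transcripts were the 2 raised and 2 lowered with the largest difference among called transcripts without overlap between the groups and above the lowest 25% of mean levels. Gene lists by function were left out, as identifiers carry no names. The comparison, its members and the lists were chosen with earlier results of these data known. Alternatives were 3 other scalings, a filter on low levels, other call rules, fits with array weights or with trend and robust options, a model of 7 canary HVC groups, the replicate number as a block, a lower threshold for the lists from other species, and leaving out each array in turn.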

Additional observations from a re-analysis of the deposited data

Results flagged for a closer look

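Single arrays stood apart from the rest of their group in 5 of 50 groups checked (10%), which were 11 canary groups for each of the 4 named transcripts and both HVC groups for the 3 array measures, by a gap test that chance passes in about 1 of 20 groups (5%). XM_002200534 was at 9.28 in HVC of breeding female replicate 2, above the other 5 breeding females. XM_002189651 was at 7.32 in the cerebellum of non-breeding female replicate 2. ENSTGUT00000011554 was at 8.31 in the entopallium of non-breeding female replicate 5 and at 8.64 in the cerebellum of non-breeding female replicate 6. It was also at 7.95 in HVC of testosterone-implanted male replicate 1, a group not used in the comparisons above.

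The seasonal difference itself differed between HVC and entopallium of females in 770 transcripts, between HVC and cerebellum in 710, and between females and males in HVC in 763, each by a limma interaction. Among the named transcripts, XM_002200534 had a seasonal difference more positive in HVC than in the entopallium by 0.96. ENSTGUT00000011554 had a difference more negative in HVC, by -0.91 against the entopallium and -1.14 against the cerebellum, and by -1.50 in females against males. XM_002189651 differed between females and males by 1.50 and XM_002189587 by -0.94. The named transcripts were chosen on HVC arrays that enter these interactions, so these values are a description.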

How the results depend on the processing

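The count of 707 seasonal calls in HVC was at most 730 when single arrays were left out, with 631 to 657 of the 707 kept. It was 7059 without a threshold on size and 48 at an absolute log2 difference of at least 1. The replicate numbers name different birds in the 2 seasons and did not pair them: 0 of 6 same-numbered pairs had deviations correlated above 0.1, and 1 array correlated best with its own number. With the replicate number as a block the calls were 708 in HVC of females, 0 in the cerebellum (3395 at an unadjusted p under 0.05 by limma) and 1 in HVC of males. Cerebellum calls, 36 as deposited, were 20 after quantile normalisation and 67 without the lowest 25% of levels, and ran between 0 and 99 without single arrays (3323 to 4971 at an unadjusted p under 0.05 by limma). Male HVC calls, 5 as deposited, were 2 without the lowest 25% of levels and ran between 1 and 5 without single arrays. Without single arrays the shift of the array median ran between -0.0348 and -0.0240 and that of the 1st percentile between 0.0319 and 0.0641, losing significance by the exact permutation test in 8 and 10 of 12 cases. The interaction of XM_002200534 between HVC and entopallium lost its call in 11 of 23 fits without a single array, and those of XM_002189651 and XM_002200534 between HVC and cerebellum gained one without non-breeding cerebellum replicate 2 (0.91) and replicate 6 (1.31). Uncalled values of XM_002189651 also moved without single arrays: between 0.50 and 0.87 in the cerebellum, -0.16 and -0.01 in males, and 0.03 and 0.33 for HVC minus entopallium, while HVC minus entopallium of XM_002189587 ran between -0.05 and 0.14. Of the 67 other alternatives, 60 kept the direction and the side of the threshold, or a count within 1.5 times, and 0 reversed. Counts were compared by their total only, not by their split into higher and lower. Centring each array on its median turned the larger share from lower to higher calls in HVC of females. It did the same in the interactions with cerebellum and with sex. Equal total intensity and quantile normalisation kept lower calls the larger share in all of these. In that order they gave 291 higher and 422 lower, then 311 and 388, in HVC of females. For the cerebellum interaction they gave 323 and 374, then 296 and 344. For the sex interaction they gave 336 and 420, then 352 and 406. The cause of the changes with processing was not tested.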
